A study of Mus musculus with 6 samples.

Results

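The insulin receptor signalling chain was followed through 10 genes, Insr, Irs1, Irs2, Irs3, Pik3r1, Akt1, Akt2, Tbc1d4, Pde3b and Grb14, in epididymal fat, a visceral depot, of mice kept on a normal diet (ND) or a high-fat diet (HFD). They are known steps of the chain, were taken by symbol, and were found as 10 of the 54532 genes in the count table. The RNA-Seq covered 3 untreated samples per diet from male C57BL/6J mice, on an ND with 4.5% fat or an HFD with 60% fat for 16 weeks from 4 weeks of age. The sources used here do not say whether a sample is 1 mouse or a pool, so the p-values measure the spread between these samples. Values are CPM (counts scaled to a common library total with edgeR's TMM factors), and a level of one gene against another is given only as FPKM, which divides by gene length.

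Insulin binds its receptor, a tyrosine kinase, which phosphorylates docking proteins of the Irs family. These recruit phosphoinositide 3-kinase, whose lipid product brings Akt to the membrane. In adipocytes Akt then acts on Tbc1d4, which holds glucose transporter vesicles inside the cell, and on Pde3b, which breaks down cyclic AMP and so restrains lipolysis, while Grb14 binds the active receptor and inhibits it.

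Count totals lay between 16996896 and 18859320 per library, and all 10 genes passed the filter on low counts. The libraries were not alike in their summed cell type markers. A list of 12 adipocyte markers summed to 48080 to 63927 CPM on ND and 27764 to 47584 on HFD, and none of them was at 0 in all libraries. Of the 12, edgeR called 2 lower (Retn and Cfd) and 0 higher, the median log2 fold change was -0.36, and 3 had a positive one. A list of 15 macrophage markers summed to 2063 to 2167 CPM on ND and 4400 to 9548 on HFD, and the edgeR test called 11 of the 15 higher on HFD. The third HFD library had the least adipocyte and the most macrophage signal, and the second HFD library the reverse among the HFD libraries. The third ND library held 122 CPM of 6 ciliated epithelium markers, against 2.54 to 5.59 in the others. In bulk fat, fewer cells of a type and less RNA per cell cannot be told apart, and the part of these differences in the results that follow was not tested.

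Of the 10 chain genes 3 were lower on HFD by edgeR's quasi-likelihood test, with p-values adjusted across the 15751 genes tested and a threshold of 0.05. None (0) was higher, also at an unadjusted p under 0.05. They were Irs1, Pik3r1 and Tbc1d4, an adaptor, a kinase subunit and an Akt target. Over all genes tested 6.04% were lower and 9.85% were higher. The median log2 fold change of the chain was -0.49, against 0.01 over all genes. In 5 of the 10, Insr, Irs1, Pik3r1, Tbc1d4 and Pde3b, every HFD library lay below every ND library, which held for 19.1% of all genes tested, while no chain gene lay wholly above, as 21.7% of all genes did. DESeq2's Wald test called these same 5 genes lower, where its background was 8.42%.

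**Figure D1:**
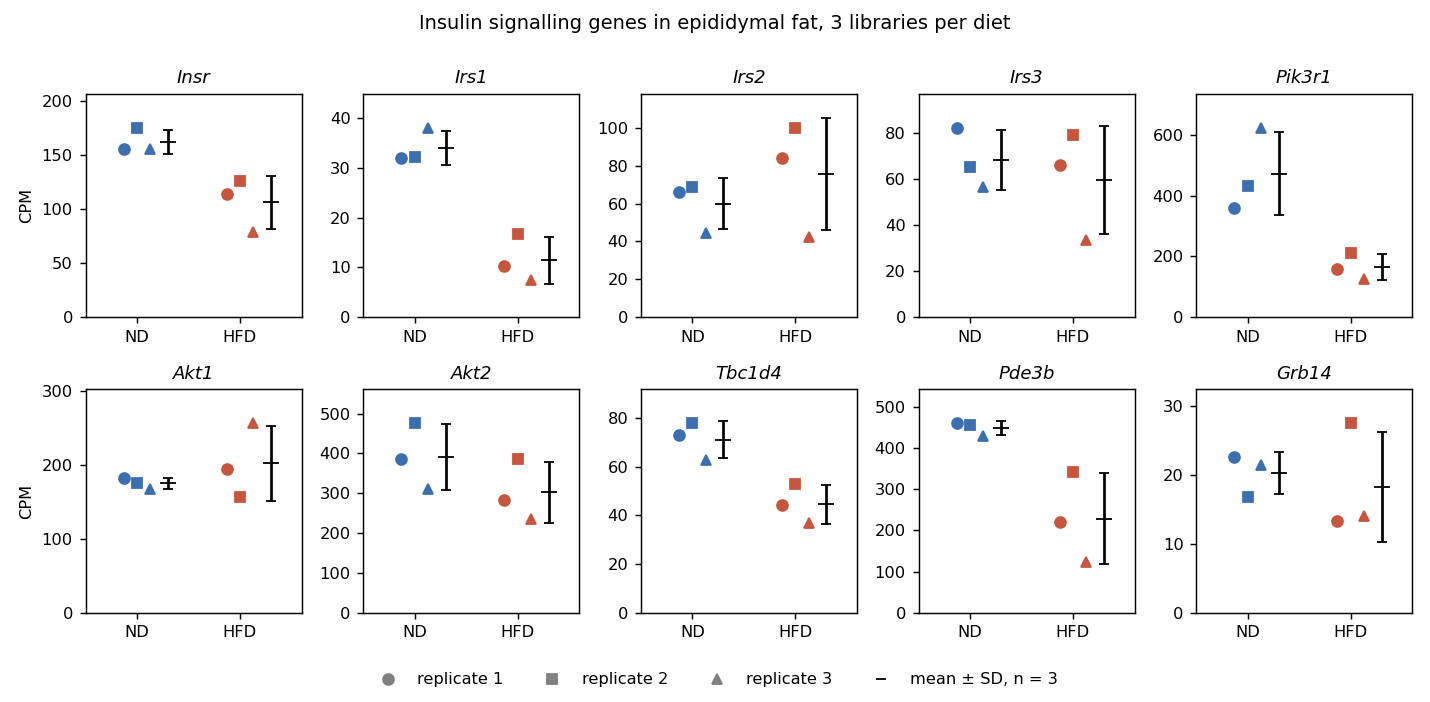
Level of each chain gene in CPM (vertical axes, from 0, each panel with its own scale) in the 3 ND (blue) and 3 HFD (red) libraries, with the mean and SD in black. The HFD points sit below all ND points for Insr, Irs1, Pik3r1, Tbc1d4 and Pde3b. The third HFD library (triangle) is the lowest HFD point in 8 of the 10 panels, and the second (square) the highest in 9. The adipocyte marker sum was also lowest in the third and highest in the second HFD library, and its part was not tested.

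Insr, the receptor (ENSMUSG00000005534, chromosome 8 of GRCm38 from 3122061 to 3279617), had 155, 175 and 155 CPM with ND against 114, 126 and 78.3 with HFD. The groups did not overlap, and the third HFD library was the lowest. The means were 162 ± 11.3 and 106 ± 24.8 CPM (SD, n = 3 each). On the log2 scale HFD minus ND was -0.61, with a standard error of 0.19 and a 95% interval from -1.05 to -0.17. It did not pass over all genes (adjusted p = 0.0671 by edgeR's quasi-likelihood test).

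The adaptors of the receptor did not move together. Irs1 (ENSMUSG00000055980, chromosome 1 from 82233101 to 82291416) had 31.9, 32.1 and 38.0 CPM with ND against 10.2, 16.6 and 7.55 with HFD. Every HFD library held less than any ND library, and the mean went from 34.0 ± 3.46 to 11.4 ± 4.67 CPM (SD, n = 3 each). Irs1 thus fell by 1.57 (standard error 0.28) in log2 units, or 2.97-fold (adjusted p = 0.0144 by edgeR), the largest of the 10 differences. Of its exon bases 30.9% are shared with Gm9747 on the opposite strand, a gene with 0 counts in all 6 libraries. Without strand, reads in the shared bases cannot be assigned to either gene, so these 0 counts do not settle the overlap. Its effect on the Irs1 level was not tested.

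Irs2 (ENSMUSG00000038894, chromosome 8 from 10984681 to 11008458), the main adaptor in liver, had 66.3, 69.0 and 44.7 CPM with ND against 84.0, 100 and 42.6 with HFD. The first and second HFD libraries were above all ND libraries and the third HFD library was below them. The log2 fold change of 0.33 had a 95% interval from -0.41 to 1.08 (adjusted p = 0.498 by edgeR). It was 0.08 without the second and 0.60 without the third HFD library. Irs3 (ENSMUSG00000047182, chromosome 5 from 137643031 to 137645714), an adaptor of rodent fat, had 82.1, 65.3 and 56.4 CPM with ND against 66.2, 78.8 and 33.5 with HFD. Its groups overlapped, with a log2 fold change of -0.19 (95% interval -0.91 to 0.53, adjusted p = 0.697 by edgeR), which was 0.08 without the third HFD library.

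Pik3r1 (ENSMUSG00000041417, chromosome 13 from 101680563 to 101768217) encodes the main regulatory subunit of phosphoinositide 3-kinase, which binds the phosphorylated adaptors. It had 360, 432 and 623 CPM with ND against 159, 211 and 127 with HFD. The third ND library stood highest and the diets did not overlap. From 472 ± 136 to 166 ± 42.4 CPM (SD, n = 3 each), Pik3r1 fell 2.84-fold (log2 fold change -1.51, standard error 0.27, adjusted p = 0.0152 by edgeR). Without the third ND library, the one with ciliated epithelium markers, the log2 fold change was -1.29 (adjusted p = 0.0455 by edgeR).

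The kinase genes were not called. Akt1 (ENSMUSG00000001729, chromosome 12 from 112653821 to 112674884), the widely expressed form, had 182, 175 and 167 CPM with ND against 194, 156 and 256 with HFD. Its log2 fold change was 0.21 (95% interval -0.24 to 0.65, adjusted p = 0.478 by edgeR) and -0.01 without the third HFD library. Akt2 (ENSMUSG00000004056, chromosome 7 from 27591552 to 27640826), the form tied most closely to glucose uptake, had 387, 475 and 311 CPM with ND against 283, 385 and 236 with HFD. The lowest ND value lay under the highest HFD value, and the log2 fold change was -0.37 (95% interval -0.93 to 0.18, adjusted p = 0.309 by edgeR).

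Of the Akt targets, Tbc1d4 (ENSMUSG00000033083, chromosome 14 from 101442360 to 101609191) had 73.0, 77.8 and 62.7 CPM with ND against 44.2, 52.9 and 36.8 with HFD. All HFD values lay below the ND values, with means of 71.2 ± 7.70 and 44.6 ± 8.05 CPM (SD, n = 3 each). Tbc1d4 fell by 0.67 (standard error 0.16) in log2 units, or 1.59-fold (adjusted p = 0.0322 by edgeR). Pde3b (ENSMUSG00000030671, chromosome 7 from 114415281 to 114539251) had 459, 456 and 429 CPM with ND against 219, 342 and 122 with HFD. The ND libraries lay close together (448 ± 16.5 CPM, SD, n = 3), the HFD libraries far apart (228 ± 110 CPM, SD, n = 3), and the groups did not overlap. At -0.98 in log2 units (standard error 0.34, 95% interval -1.78 to -0.17), larger in size than that of Tbc1d4 but with a wider error, Pde3b did not pass (adjusted p = 0.0920 by edgeR).

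Grb14 (ENSMUSG00000026888, chromosome 2 from 64912476 to 65024987), the inhibitor, had the fewest counts of the chain on ND, between 290 and 431 per library. It had 22.7, 16.8 and 21.5 CPM with ND against 13.3, 27.5 and 14.1 with HFD. The second HFD library was above all ND libraries and the other two were below them. Its log2 fold change was -0.16 (95% interval -0.86 to 0.54, adjusted p = 0.750 by edgeR).

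Leaving out 1 library at a time changed the calls. Irs1 passed in 2 of the 6 fits and had adjusted p-values by edgeR of 0.00126 to 0.0728. Pik3r1 passed in 4 of 6 (0.00606 to 0.0754) and Tbc1d4 in 2 of 6 (0.0115 to 0.116). Without the first HFD library, or without the second ND library, 0 chain genes were called by edgeR, with 4 lower at an unadjusted p under 0.05 in each. Over all genes 94 and 215 were called lower in these fits, against 952 with all libraries. Without the first or the third ND library 1 chain gene was called, Pik3r1, beside 155 and 396 lower over all genes. Without the second HFD library 5 chain genes were called, Insr and Pde3b added, beside 1572 lower over all genes. Without the third HFD library the 3 calls were unchanged, beside 743 lower over all genes. The log2 fold changes of Irs1 stayed between -1.94 and -1.36, of Pik3r1 between -1.72 and -1.29 and of Tbc1d4 between -0.81 and -0.57.

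The upstream sequences of the 3 genes called lower are shown. Whether these genes are regulated together was not tested. RefSeq's promoter table (GRCm38.p6) held 13 starts for 8 of the 10 genes, and Insr and Pde3b were not among them. Each line gives the 250 bases before a start, 5′ to 3′ on the minus strand of the genome, where all 3 genes lie. Capitals mark the GC box GGGCGG, the E-box CACGTG, the CCAAT box CCAAT, and the TATA box TATAAA, on either strand. A forkhead element, TGTTTAC, was also searched. Pik3r1 has a distal and a proximal start in the table, known to give the long and the shorter forms of the subunit, which a count per gene cannot separate.
Irs1 (chr1:82291440-82291689): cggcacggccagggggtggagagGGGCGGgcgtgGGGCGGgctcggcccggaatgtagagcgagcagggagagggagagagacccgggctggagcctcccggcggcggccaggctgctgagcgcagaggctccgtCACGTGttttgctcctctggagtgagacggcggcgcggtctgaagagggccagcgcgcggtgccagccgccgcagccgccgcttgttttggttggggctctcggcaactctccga
Pik3r1, distal start (chr13:101768218-101768467): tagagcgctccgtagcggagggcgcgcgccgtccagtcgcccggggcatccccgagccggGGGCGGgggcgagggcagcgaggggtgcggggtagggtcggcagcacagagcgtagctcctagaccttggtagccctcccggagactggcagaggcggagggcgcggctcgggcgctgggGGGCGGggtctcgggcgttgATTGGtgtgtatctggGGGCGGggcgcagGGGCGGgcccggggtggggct
Pik3r1, proximal start (chr13:101692631-101692880): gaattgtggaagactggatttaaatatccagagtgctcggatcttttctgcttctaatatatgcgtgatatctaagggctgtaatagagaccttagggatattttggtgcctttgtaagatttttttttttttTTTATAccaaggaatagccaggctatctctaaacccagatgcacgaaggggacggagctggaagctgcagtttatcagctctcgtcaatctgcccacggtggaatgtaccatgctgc
Tbc1d4 (chr14:101609192-101609441): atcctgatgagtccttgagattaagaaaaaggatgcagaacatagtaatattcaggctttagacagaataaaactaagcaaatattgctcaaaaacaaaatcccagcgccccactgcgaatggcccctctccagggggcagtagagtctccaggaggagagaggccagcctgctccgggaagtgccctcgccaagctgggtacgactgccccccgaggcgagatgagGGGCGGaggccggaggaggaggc

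Before Irs1 there were 2 GC boxes and 1 E-box, before the distal start of Pik3r1 4 GC boxes and 1 CCAAT box, and before Tbc1d4 1 GC box. The proximal Pik3r1 start had a TATA box and no GC box, and its GC content was 42.4%, against 76.4% at the distal one. Irs1 had 72.4% and Tbc1d4 54.8%, where the median of all 32851 promoters was 52.4%. Of all promoters 32.7% held a GC box, 33.8% a CCAAT box, 12.4% a TATA box, 6.02% an E-box and 3.17% a forkhead element. GC boxes were in 8 of the 13 chain promoters, the CCAAT box in 3 and the TATA box in 1. The E-box was in 2, at Irs1 and at Irs2, which was not called lower, and the forkhead element in 1, at Akt1. These letter matches are a description and no test of binding.

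Per gene length, the chain was uneven. On ND the mean levels ran from Akt2 at 55.7 ± 12.1 FPKM through Pde3b (49.9 ± 2.26), Pik3r1 (47.4 ± 13.2) and Akt1 (43.3 ± 2.14), all SD with n = 3, and each overlapped the next. Irs3 at 29.5 ± 5.84 FPKM stood apart from Akt1 above it and from Insr below it (11.9 ± 0.899). Irs2 (9.64 ± 2.21) overlapped Tbc1d4 (9.41 ± 1.09), and Irs1 (3.77 ± 0.349) lay above Grb14 (2.87 ± 0.431). On HFD the order opened with Akt1 at 49.5 ± 12.2 FPKM, then Akt2 (42.5 ± 10.8), Irs3 (25.6 ± 10.1), Pde3b (25.1 ± 12.2) and Pik3r1 (16.5 ± 4.26), and each again overlapped the next. Irs1 was last at 1.26 ± 0.515 FPKM, below Grb14 at 2.56 ± 1.12. The length that divides the Irs1 counts includes the bases shared with Gm9747, so its place beside other genes is uncertain. Akt2 was above Akt1 in 3 of 3 ND libraries and in 1 of 3 HFD libraries.

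Within its family, the share of a member gives a ratio that does not depend on library scaling. In all 10 shares were compared, of which 8 are given here, by an exact two-sided permutation test, which for 3 against 3 libraries cannot go below p = 0.1, so none could pass 0.05. Of the summed FPKM of the 3 adaptors, Irs1 took 7.09%, 8.30% and 11.7% on ND and 2.60%, 3.54% and 3.77% on HFD. The Irs2 share was 21.4%, 25.8% and 20% on ND and 31.1%, 30.8% and 30.8% on HFD. Both shares were free of overlap between the diets, in opposite directions (exact p = 0.1 and adjusted p = 0.2 for each). The 3 shares are parts of the same sum, so a lower share of Irs1 by itself raises the others. The opposite directions are therefore not separate results, and Irs2 itself was not called in CPM. Irs3 was the larger part in all libraries, 68.6% ± 2.80 on ND and 65.8% ± 0.448 on HFD (SD, n = 3 each, exact p = 0.2). The size of these shares depends on the Irs1 level, which the bases shared with Gm9747 leave uncertain.

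Among the regulatory subunits Pik3r1, Pik3r2 and Pik3r3, Pik3r1 took 65.4%, 68.2% and 76.7% on ND and 48.2%, 54.7% and 44.7% on HFD (exact p = 0.1). Tbc1d4 took 73.5%, 74.1% and 61.3% of its sum with Tbc1d1 on ND and 47.0%, 58.1% and 35.6% on HFD (exact p = 0.1). In these families too the diets did not overlap. Pde3b made up 96.6% ± 0.303 of Pde3a and Pde3b on ND and 93.8% ± 2.46 on HFD (SD, n = 3 each, exact p = 0.1). Insr took 87.2% ± 4.18 of its sum with Igf1r on ND and 83.4% ± 1.35 on HFD (SD, n = 3 each, exact p = 0.3). Grb14 went from 21.9% ± 2.76 of Grb7, Grb10 and Grb14 to 29.9% ± 8.14 (SD, n = 3 each, exact p = 0.2). With 1 library left out, the difference in share for Grb14 was 3.83 points in place of 8.01 (without the second HFD library) and that for Pde3b -1.58 in place of -2.87 (without the third HFD library). That for Insr was -6.17 without the third and -2.35 without the second ND library in place of -3.77, and that for Irs3 -1.34 without the first ND library in place of -2.81.

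**Figure D2:**
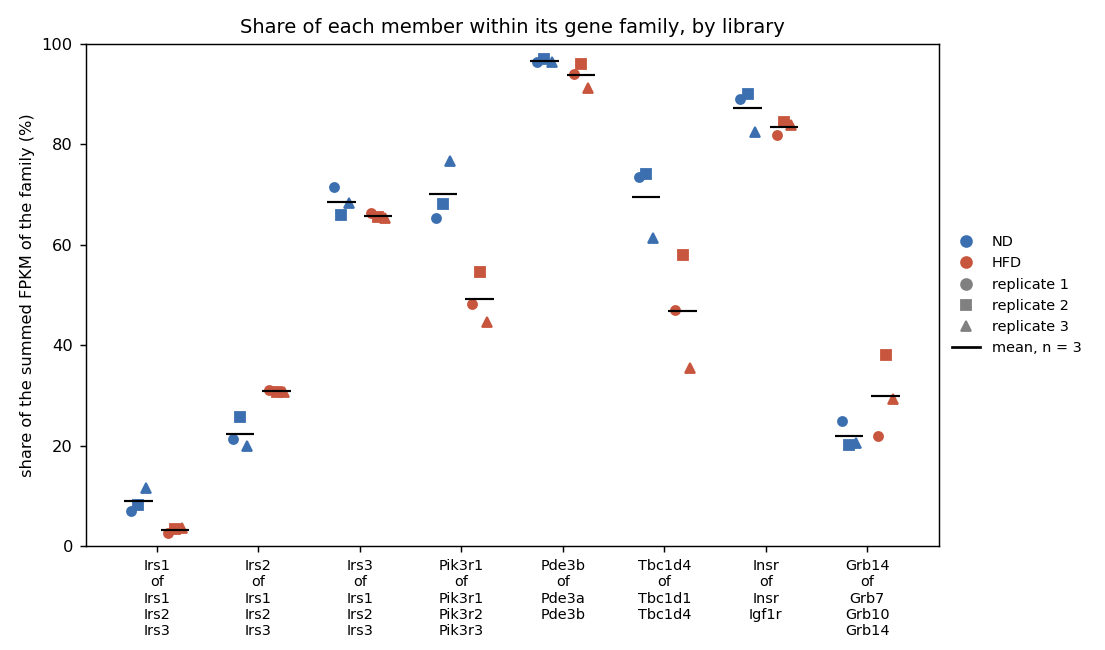
Share of 8 members in the summed FPKM of their gene families (vertical axis, percent) in the ND (blue) and HFD (red) libraries, with means as black lines. The Irs1, Pik3r1 and Tbc1d4 shares sit lower on HFD and the Irs2 share higher (30.9% against 22.4% on average), each with no overlap, while the Insr and Grb14 shares overlap.

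The chain genes were also set against the adipocyte markers of the same library, as the log2 ratio of their CPM to the geometric mean of the 12 markers. That mean was 11.43, 11.62 and 11.22 log2 CPM on ND and 10.73, 11.27 and 9.99 on HFD, a difference of -0.76 with overlap. On this scale Irs1 was lower on HFD by -0.88, Pik3r1 by -0.74 and Pde3b by -0.34, and the diets did not overlap (exact p = 0.1 for each, the smallest possible, adjusted p = 0.167). Irs2 was higher by 1.03, Irs3 by 0.50 and Akt2 by 0.38, also with no overlap and with the same p-values. So 3 of the 10 lay wholly below and 3 wholly above on this scale, as 2.81% and 38.7% of all genes tested did. Insr differed by 0.13 and Tbc1d4 by 0.08, with overlap (exact p = 0.6 and 0.9), although Tbc1d4 was called lower in CPM. Akt1 at 0.94 and Grb14 at 0.54 also overlapped (exact p = 0.3 for both). Leaving out 1 library moved some of these differences by over 1.5 times. Without the third ND library that of Pik3r1 was -0.42. Without the third HFD library it was 0.20 for Akt2, 0.42 for Akt1, 0.35 for Grb14, -0.01 for Insr and -0.13 for Tbc1d4. Without the second it was 1.42 for Akt1, 0.29 for Insr and 0.25 for Tbc1d4, and Grb14 had 0.31 without the second ND library.

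The choice of markers mattered for some of these ratios. Cfd, the adipocyte marker that fell most (log2 fold change -3.42), was left out as a choice made after seeing the data. Without it, or with the median of the markers, or with Adipoq alone, Irs3 and Akt2 overlapped between the diets and Pik3r1 overlapped with Adipoq alone. Irs1 and Pde3b stayed below and Irs2 above under all of these references. Without Cfd the difference was -0.18 for Insr, -1.19 for Irs1, 0.73 for Irs2, 0.19 for Irs3 and -1.04 for Pik3r1. It was 0.64 for Akt1, 0.07 for Akt2, -0.23 for Tbc1d4, -0.64 for Pde3b and 0.23 for Grb14, so that Insr and Tbc1d4 changed sign.

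**Figure D3:**
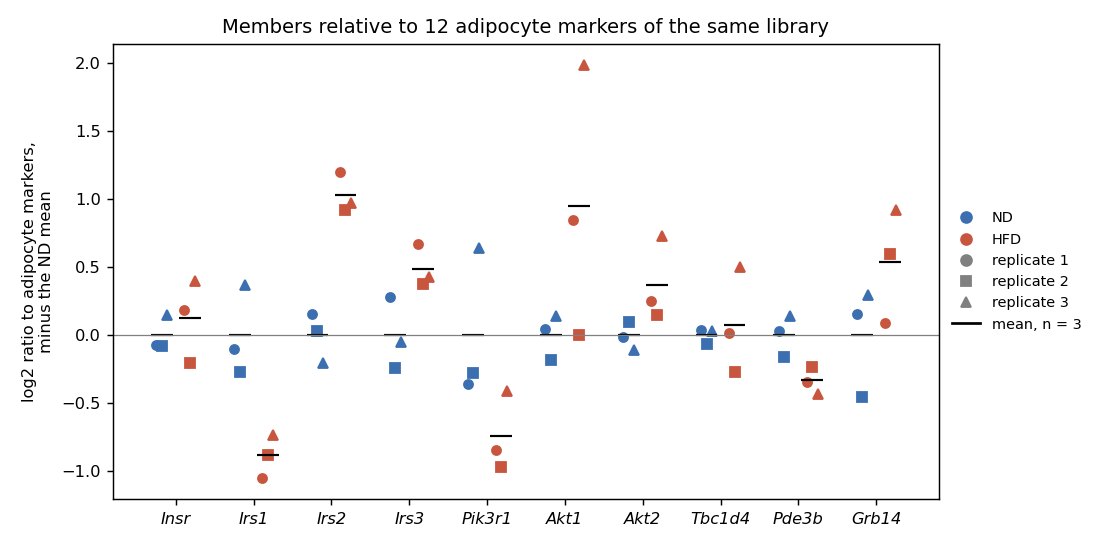
Log2 ratio of each chain gene to 12 adipocyte markers of its own library, minus the ND mean of that gene (vertical axis), for the ND (blue) and HFD (red) libraries, with means as black lines. Irs1, Pik3r1 and Pde3b lie lower on HFD and Irs2, Irs3 and Akt2 higher, while Insr and Tbc1d4 overlap.

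Around the chain, 83 other genes of the pathway were listed by role, and 82 were tested. By edgeR 9 were higher and 6 were lower on HFD, with 1 to 20 and 0 to 11 when 1 library was left out, beside 9.85% higher and 6.04% lower over all genes. Their median log2 fold change was 0.02. Irs4, an adaptor mostly of other tissues, had 2 counts in 1 ND library and was not tested.

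Of the 7 other adaptors tested 1 was higher, 1 was lower and 5 did not pass by edgeR. Sh2b2, an adaptor that binds the active receptor, fell from 70.9 ± 10.7 to 37.1 ± 5.63 CPM (SD, n = 3 each, log2 fold change -0.94, adjusted p = 0.0129 by edgeR). Grb2, which links receptors to Ras, rose from 104 ± 12 to 199 ± 53.1 CPM (SD, n = 3 each, adjusted p = 0.0261 by edgeR). The receptor relative Insrr had 16, 17 and 35 counts with ND against 5, 3 and 3 with HFD, and passed on these few counts (adjusted p = 0.0185 by edgeR). Igf1r, the receptor for insulin-like growth factors, differed by -0.17 in log2 units (adjusted p = 0.701 by edgeR), and by 0.11 without the third ND library or 0.01 without the third HFD library.

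Of the 8 other subunits of phosphoinositide 3-kinase 3 were higher and 0 lower (1 lower at an unadjusted p under 0.05). Pik3r5, a regulatory subunit used mainly in leukocytes, rose 9.90-fold, from 10.9 ± 0.583 to 108 ± 70.8 CPM (SD, n = 3 each, adjusted p = 0.00915 by edgeR). Its HFD counts were 1590, 826 and 3242, lowest in the second and highest in the third HFD library, the order of the macrophage markers. Without the third HFD library its log2 fold change was 2.63 in place of 3.31 (adjusted p = 0.00148 by edgeR). The catalytic subunits Pik3cd and Pik3cg, also known from leukocytes, rose 2.59-fold and 2.45-fold (adjusted p = 0.0132 and 0.0280 by edgeR). Pik3r2 and Pik3r3, the relatives of Pik3r1, had log2 fold changes of -0.25 and -0.03 and did not pass (adjusted p = 0.120 and 0.944 by edgeR). The value for Pik3r3 was 0.03 without the second ND library and 0.15 without the third HFD library. The macrophage markers rose in the same HFD libraries, and their part in the rise of the 3 subunits was not tested. Grb2 above, and Foxo3, Cbl, Stxbp3 and Inpp5d below, were also lowest in the second and highest in the third HFD library. For these genes too, the part of the macrophage markers was not tested.

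In the 16 other Akt targets 1 was called, Foxo3, a transcription factor that Akt keeps out of the nucleus, at a log2 fold change of 0.83 (adjusted p = 0.0248 by edgeR). Tbc1d1, the relative of Tbc1d4, had 0.73 and did not pass (adjusted p = 0.0831 by edgeR), nor did Pde3a at -0.24 (0.261). In the Ras and MAP kinase branch 0 of 9 genes were called by edgeR and 3 were higher at an unadjusted p under 0.05.

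Slc2a4, the insulin-responsive glucose transporter whose vesicles Tbc1d4 controls, had 5207, 5209 and 3984 counts with ND against 1979, 2228 and 877 with HFD. It fell 2.67-fold, from 261 ± 54.4 to 97.6 ± 42.8 CPM (SD, n = 3 each, log2 fold change -1.42, adjusted p = 0.0379 by edgeR). With 1 library left out its log2 fold change stayed between -1.71 and -1.12. Slc2a4 did not pass without the first HFD library or without any single ND library (adjusted p = 0.0631 to 0.115 by edgeR). Of the 15 other genes in its list 2 rose, Cbl (log2 fold change 0.85, adjusted p = 0.0178) and Stxbp3 (0.68, adjusted p = 0.0275, both by edgeR). Cbl is a ubiquitin ligase also used in many other cells, and Stxbp3 a binding partner of the fusion protein syntaxin.

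Among the 18 other inhibitors 3 were lower and 1 was higher. Grb10, the relative of Grb14, fell from 80.9 ± 3.56 to 48.1 ± 8.49 CPM (SD, n = 3 each, log2 fold change -0.75, adjusted p = 0.0196 by edgeR). Trib2, a pseudokinase, had a log2 fold change of -1.09 and the receptor phosphatase Ptprf of -1.04 (adjusted p = 0.0127 and 0.0303 by edgeR). Ptprf was highest in the third ND library, and without that library its log2 fold change was -0.79 and did not pass (adjusted p = 0.0629 by edgeR). Inpp5d, a lipid phosphatase of blood cells, rose 3.10-fold (adjusted p = 0.0121 by edgeR). Grb7 had 21, 11 and 215 counts with ND against 45, 21 and 28 with HFD. Its log2 fold change of -1.23 (adjusted p = 0.419 by edgeR) was 0.96 without the third ND library, the library with ciliated epithelium markers.

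**Figure D4:**
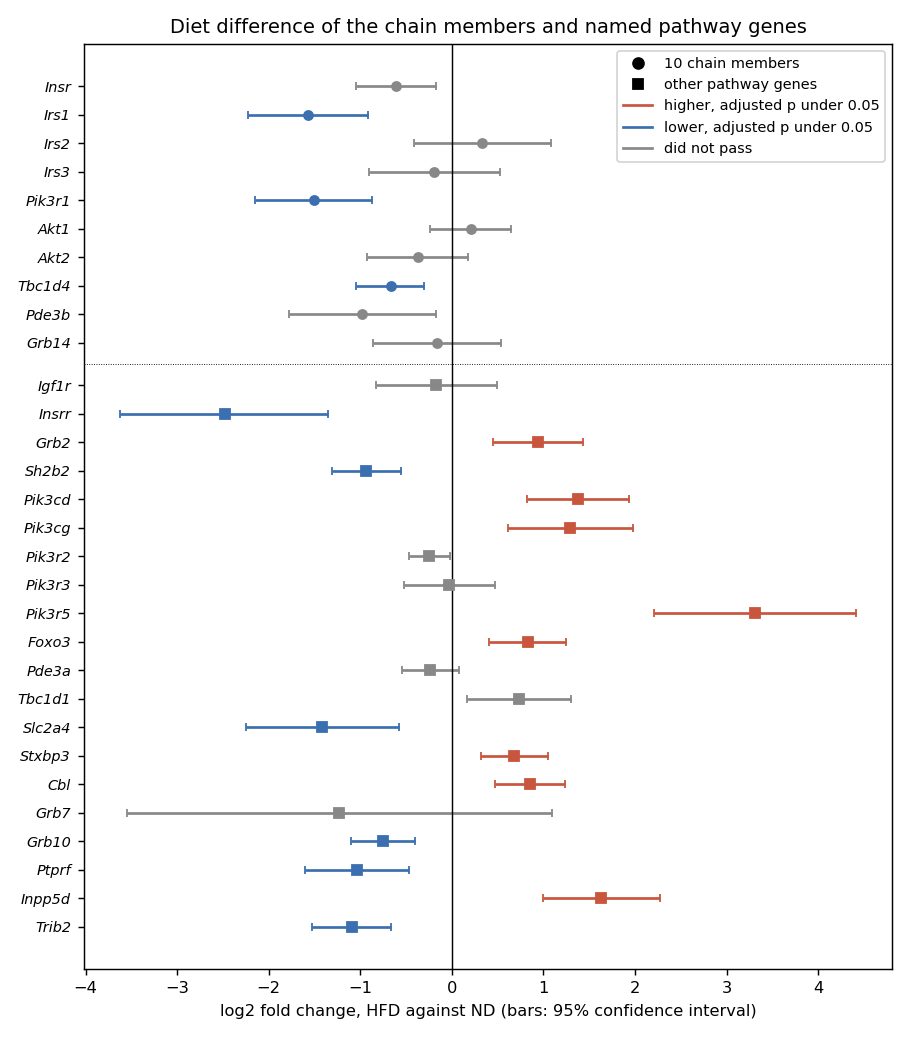
Log2 fold change of HFD against ND (horizontal axis) with its 95% interval for the 10 chain genes (circles) and the named pathway genes (squares), in blue where lower and in red where higher at an adjusted p-value under 0.05. The 3 blue circles are Irs1, Pik3r1 and Tbc1d4, and Pik3r5 lies farthest right at 3.31.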

How the data were processed

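RNA of the epididymal fat was measured by RNA-Seq in 3 ND and 3 HFD samples, grouped by their titles. The authors deposited raw counts per gene and FPKM values. The paper names TopHat, Cufflinks and GRCm38, while the submitters' processing notes name HISAT2 2.0.5, featureCounts 1.5.0-p3 and human builds, and the identifiers are those of mouse Ensembl genes. The kit named in the labels (NEBNext Ultra RNA) does not mark strand. The deposited FPKM equalled the count divided by a gene length and by 1 factor for each library in the 11492 genes checked. Of 54532 identifiers 54495 were found in GENCODE M21 (GRCm38), which gave symbols and coordinates.

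HFD was tested against ND across all genes in R 4.3.3 by edgeR 4.0.16 (TMM, filterByExpr, glmQLFit, robust=TRUE, Benjamini-Hochberg, threshold 0.05), which was tested on simulated data. Standard errors and 95% intervals come from its F statistic. A count of 3 corresponds to 0.150 to 0.181 CPM, for counting error only. The fit was repeated under 17 alternative settings, with DESeq2 1.42.0 and limma 3.58.1 among them. Shares and ratios were compared by exact permutation, and a reference without Cfd was added after seeing the data. The genes named are the 10 chain genes, their paralogs (1 result is not reported here), Slc2a4 and up to 4 called genes per role, and the lists were written by hand. The members and lists were chosen with earlier results of these data known.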

Additional observations from a re-analysis of the deposited data

How the results depend on the processing

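Of 170 refits of the chain genes' log2 fold changes under 17 settings, 150 kept direction and side of the threshold, 13 lost the call, 4 gained it and 3 changed sign. DESeq2 called 1596 genes lower over all genes and 5 in the chain. On log2(FPKM + 0.1) 5 pathway genes were higher and 3 lower. On log2(FPKM + 1) without the filter limma called 484 genes higher and 426 lower, 1 chain gene lower (Irs1, with 5 at an unadjusted p under 0.05), and 0 pathway genes higher and 2 lower (20 and 15 at an unadjusted p under 0.05). With 1 library left out, the counts by edgeR were 337 to 2368 higher and 94 to 1572 lower over all genes, 0 to 5 chain genes lower, and 1 to 20 pathway genes higher and 0 to 11 lower. The pathway counts (higher, then lower) were 1 and 1 without the first HFD library, 20 and 11 without the second and 9 and 6 without the third, and 1 and 0, 1 and 1, and 4 and 2 without ND library 1, 2 and 3. The log2 fold changes that changed sign with 1 library left out ranged from -0.44 to 0.08 for Irs3, -0.01 to 0.37 for Akt1, -0.57 to 0.00 for Grb14, -0.23 to 0.15 for Pik3r3, -0.35 to 0.11 for Igf1r and -1.73 to 0.96 for Grb7. The cause was not tested.

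Libraries of the same number did not deviate together over all genes (correlations of their deviations from the group means -0.0858, -0.0556 and -0.00532). Such correlations cannot exclude a factor shared for some genes, and the sources used here do not say whether libraries were paired. A fit with a replicate block called 1183 genes higher and 703 lower, 3 chain genes lower, and 10 pathway genes higher and 4 lower. Of the 1886 genes called with it 1693 were also called without. On CPM in place of FPKM, which gives long genes more weight, the share of Irs1 differed between HFD and ND by -13.5 percentage points in place of -5.74, and that of Irs2 by 14.7 in place of 8.56. Counts of Insrr, Grb7 and Irs4 were too few at this depth for firm values.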

Other observations

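Beside Irs2, the opposite-strand gene 9530052E02Rik, which shares 2.56% of the exon bases of Irs2, had 2, 0 and 2 counts with ND against 12, 12 and 8 with HFD. It was not tested at this depth, was named after its values were seen, and without strand reads in the shared bases cannot be assigned to either gene. Over the 9 endothelial markers the median log2 difference was -0.34, and they summed to 1434 to 1688 CPM with ND against 1607, 1430 and 786 with HFD, lowest in the third HFD library as the chain genes were in 8 of 10 cases. The 9 progenitor markers had a median of 0.05 and the 5 mesothelial markers of -0.29.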
